A study of Mus musculus with 10 samples.

Results

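Plasminogen and coagulation control genes were followed in mouse primary lymphatic endothelial cells, the cells that line lymphatic vessels, after an siRNA against the VEGF receptor gene Vegfr2 (Kdr). The members are the 9 genes Plaur, Plau, Plat, Tfpi, Tfpi2, Anxa2, S100a10, F3 and Procr, taken by symbol from a deposited table of 16251 genes, and 8 of them passed the filter on low counts that left 12161 genes for testing. Of the 10 libraries, 5 are labelled Vegfr2 siRNA, from cells given 50 nM of siRNA duplex, and 5 are labelled control, and RNA of both was taken at 48 h. The labels give every sample, controls included, the treatment siRNA knockdown, name no control duplex, and do not say whether replicates were separate cultures or how the primary cells were obtained. The tests below thus take their error from the spread between libraries, which may be technical. The series asks by its title whether too little endothelial VEGFR2 shifts lymphatic cells toward a blood-forming transcriptional program.

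Plasmin is the protease that dissolves fibrin and cuts several matrix proteins, and it is made from plasminogen by the urokinase-type activator (Plau) or the tissue-type activator (Plat). Urokinase is held at the cell surface by its receptor (Plaur), and plasminogen and tissue activator dock on a complex of annexin A2 (Anxa2) and S100A10 (S100a10). Clotting starts from tissue factor (F3) and is checked by tissue factor pathway inhibitor (Tfpi) and by protein C, whose receptor is encoded by Procr. Tfpi2 encodes a related inhibitor found in matrix that acts on plasmin. Endothelium is known to make members of both systems, and it keeps tissue factor low at rest.

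Promoter windows are shown for the members with a window that rose (Plaur and Tfpi2). Windows are also shown for members that did not pass the test or were not tested (Anxa2, Procr and F3). Those of Tfpi, which fell, are described but not printed. The windows, from RefSeq on GRCm38.p6, run from 250 bases before to 50 bases after an annotated transcription start, and 9 windows of 6 members were matched (Plaur, Tfpi2, Tfpi, Anxa2, F3 and Procr), while Plau, Plat and S100a10 had none. Capitals mark the AP-1 word TGANTCA and the EGR word GCGNGGGCG, each searched on both strands. The sequences are written 5′ to 3′ along the transcript.
Plaur, chr7:24462233-24462532, plus strand: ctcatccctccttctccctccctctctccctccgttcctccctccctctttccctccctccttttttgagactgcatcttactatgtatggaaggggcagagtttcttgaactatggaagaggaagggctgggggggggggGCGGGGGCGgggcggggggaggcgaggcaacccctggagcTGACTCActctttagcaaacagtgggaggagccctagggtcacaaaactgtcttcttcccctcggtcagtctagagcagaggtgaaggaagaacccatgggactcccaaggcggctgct
Tfpi2, chr6:3968326-3968625, minus strand: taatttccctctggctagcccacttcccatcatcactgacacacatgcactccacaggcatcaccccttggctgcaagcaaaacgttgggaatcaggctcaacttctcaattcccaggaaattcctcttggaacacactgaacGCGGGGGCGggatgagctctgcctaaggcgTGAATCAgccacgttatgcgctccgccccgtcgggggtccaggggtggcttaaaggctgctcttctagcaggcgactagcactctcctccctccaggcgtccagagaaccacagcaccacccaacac
Anxa2, chr9:69453433-69453732, plus strand: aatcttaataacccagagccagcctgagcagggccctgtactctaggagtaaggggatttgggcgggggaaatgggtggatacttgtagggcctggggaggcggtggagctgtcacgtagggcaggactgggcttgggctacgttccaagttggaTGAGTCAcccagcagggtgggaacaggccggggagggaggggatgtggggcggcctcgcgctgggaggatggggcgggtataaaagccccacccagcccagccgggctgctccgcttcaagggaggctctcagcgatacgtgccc
Procr, chr2:155750967-155751266, plus strand: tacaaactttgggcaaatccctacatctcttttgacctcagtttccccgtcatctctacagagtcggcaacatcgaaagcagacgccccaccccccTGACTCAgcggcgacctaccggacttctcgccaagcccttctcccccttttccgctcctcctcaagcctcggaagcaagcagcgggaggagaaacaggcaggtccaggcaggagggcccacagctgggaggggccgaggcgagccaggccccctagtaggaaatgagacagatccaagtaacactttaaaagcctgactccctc
F3, chr3:121723287-121723586, plus strand: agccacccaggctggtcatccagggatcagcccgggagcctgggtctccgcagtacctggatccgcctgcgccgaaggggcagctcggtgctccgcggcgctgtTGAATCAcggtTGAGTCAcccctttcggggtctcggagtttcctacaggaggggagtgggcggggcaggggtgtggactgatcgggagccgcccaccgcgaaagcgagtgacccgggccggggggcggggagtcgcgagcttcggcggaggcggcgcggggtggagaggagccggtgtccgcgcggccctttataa
Of the 6 members with a window, 5 held the AP-1 word (all but Tfpi), where 8.97% of 27025 genes with a window do. Plaur and Tfpi2 were the 2 of these 6 that held the EGR word, which 6.27% of all genes with a window hold. With the first transcribed base counted as 0, the EGR word began at −109 in Plaur and −107 in Tfpi2, and the AP-1 word at −69 and −77. The GC box word GGGCGG, which 38.2% of genes hold, overlaps the EGR word in both windows. The CRE word TGACGTCA was in none of the members' windows and the E-box word CACGTG was in 1, of Tfpi. The other 2 Tfpi2 windows, at starts farther upstream, held neither the AP-1 nor the EGR word. The Plaur window lies inside the span of that gene, which begins at base 24460937, so the outermost 5′ end of Plaur had no window. The start used for Procr also lies inside its gene's span, which begins at base 155751125. The printed Tfpi2 window lies inside the span of Tfpi2, whose 5′ end is at base 3988978. Anxa2 and Procr carry an AP-1 word and did not pass the test of a change. These matches describe letters in a window and were not tested as binding sites. Whether any word is linked to a change in level was not tested either.

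The target transcript was low where the labels say so. Kdr stood at 186 ± 14.8 CPM in Vegfr2 siRNA cells and 1323 ± 66.3 CPM in control cells (SD, n = 5 each; log2 fold change −2.83, adjusted p = 3.14e-11; CPM is the read count scaled to a common library size with TMM factors). Libraries held 17946483 to 18239260 estimated counts. All 10 lymphatic endothelial markers on the list had a row, with summed levels of 11690 to 12694 CPM in siRNA and 17457 to 19102 CPM in control libraries. By the edgeR test described below, 9 of the 10 fell and 1 rose, where 35.2% of all tested genes fell and 36.1% rose. The 8 pan-endothelial markers summed to 4557 to 4750 CPM in siRNA and 5673 to 5864 CPM in control libraries, and 7 of the 8 fell by the same test. Summed markers of other cell types were low. Fibroblast and mural markers (10 of 10 with a row) summed to 13.8 to 16.2 CPM in siRNA and 12.9 to 18.7 CPM in control libraries. Epithelial markers (4 of 6) summed to 7.68 to 8.73 against 1.22 to 2.46 CPM, nearly all Krt18. Myeloid markers (5 of 8) summed to 101 to 114 against 134 to 156 CPM, mostly Cd14 and Cd68, with Csf1r at 0 in every siRNA library and at most 0.167 CPM in control. Megakaryocyte and platelet markers (5 of 6) summed to 5.54 to 7.48 against 5.85 to 7.72 CPM. Their part in the results below was not tested. In such bulk samples fewer cells of a type and less RNA per cell cannot be told apart.

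Of the 8 tested members, 3 rose (Plau, Plaur and Tfpi2), 3 fell (Plat, S100a10 and Tfpi) and 2 did not pass (Anxa2 and Procr). Over all 12161 tested genes, 71.3% passed the same edgeR quasi-likelihood test at a Benjamini-Hochberg adjusted p under 0.05, 36.1% upward and 35.2% downward, so 6 of 8 is near the background. Against a fold of more than 1.5 (glmTreat), Plau, Plaur and Tfpi2 passed, all upward, where 8.56% of tested genes passed, 3.68% upward and 4.88% downward. The groups' libraries did not overlap for 6 of the 8 members, where this held for 57.0% of tested genes (28.8% higher in siRNA and 28.2% lower). The median log2 fold change of the 8 was −0.03 and the median of its absolute value 0.38, beside −0.00 and 0.22 over all tested genes. The plot of the members among all fold changes shows this spread. The members were chosen with earlier results of these data known, so their shares are a description and not a test of the set.

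**Figure D1:**
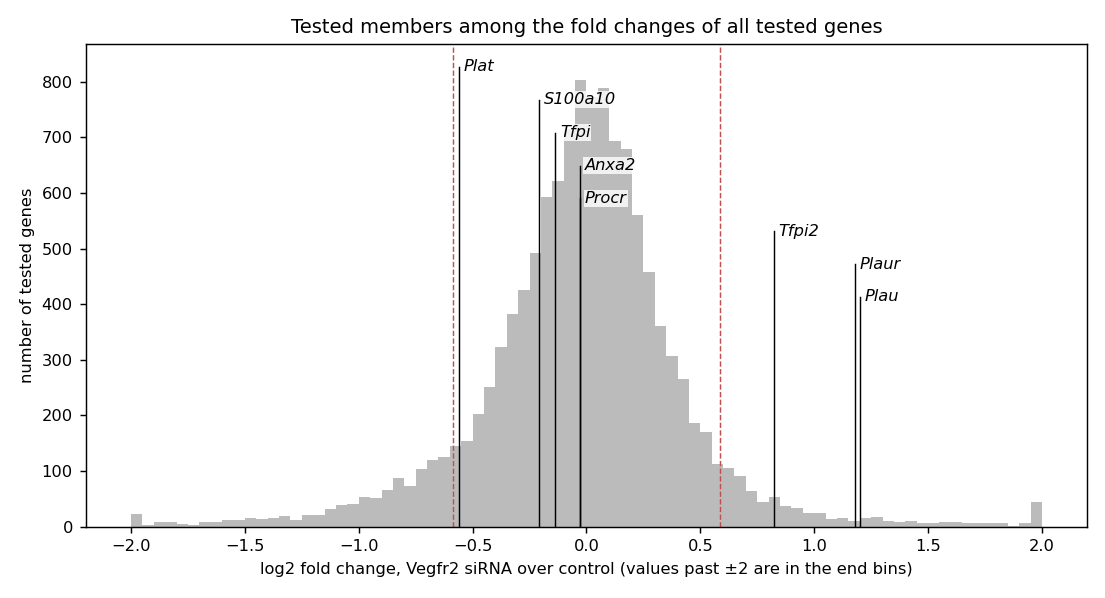
Histogram of the log2 fold change (Vegfr2 siRNA over control, x axis) of the 12161 tested genes (y axis, number of genes in bins of 0.05), with a black line at each of the 8 tested members and dashed lines at a fold of 1.5 either way; values beyond the axis range are in the end bins. Plau (1.20), Plaur (1.18) and Tfpi2 (0.82) lie beyond the right dashed line, Plat (−0.56) just inside the left one, and Anxa2 and Procr (both −0.03) at the centre.

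The urokinase gene and the gene of its receptor rose by nearly the same factor. Plau (Entrez gene 18792, GRCm38.p6 chromosome 14, 20836662 to 20843388), which encodes the secreted serine protease urokinase, was at 2339.6, 2453, 2377, 2350.3 and 2525 CPM in siRNA libraries 1 to 5, against 1059, 1017, 1072, 1074 and 1012 CPM in control libraries 1 to 5. Every siRNA library was above every control library, and the spread within a group was small (coefficient of variation 3.26% in siRNA and 2.86% in control). The rise was 2.30-fold with a 95% interval of 2.22 to 2.38 (log2 1.20, SE 0.0248, adjusted p = 6.80e-35). Its size was at the 97.0th percentile of all absolute log2 fold changes.

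Plaur (Entrez gene 18793, chromosome 7, 24460937 to 24475970), which encodes the lipid-anchored urokinase receptor, was at 374, 357, 356, 365 and 404 CPM in siRNA libraries, against 164, 162, 172, 179 and 144 CPM in control libraries. The groups did not overlap. The rise was 2.26-fold (95% interval 2.06 to 2.48, log2 fold change 1.18, SE 0.0597, adjusted p = 4.83e-08), at the 96.9th percentile of size. Plaur varied more between libraries than Plau, with a coefficient of variation of 5.32% in siRNA and 8.08% in control. Control library 5 had the lowest level of Plaur, Plau and Tfpi2 among the controls and the highest of Kdr (1431 CPM), and siRNA library 5 had the highest of Plaur and Plau and the lowest of Kdr (167 CPM). Not every library kept this order. Kdr was at 173 CPM and Plau at 2350.3 CPM in siRNA library 4, against 200 and 2377 CPM in siRNA library 3. Plaur did keep it there (365 and 356 CPM). With 5 libraries a group no correlation was computed. Without the 2 libraries numbered 5 the log2 fold change of Plaur was 1.102 and that of Plau 1.173.

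**Figure D2:**
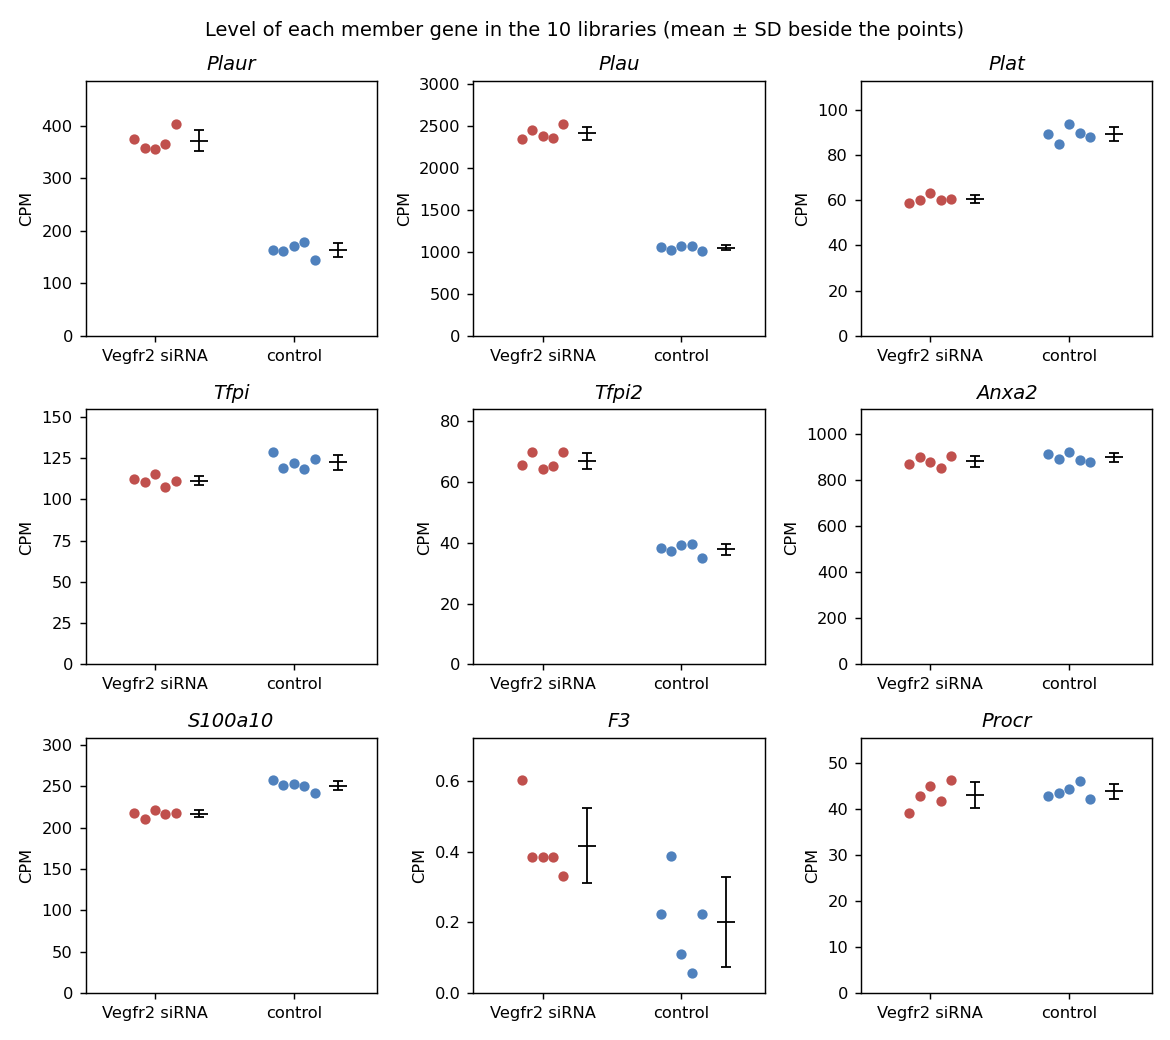
CPM (y axis, from 0) of each of the 9 members in the 5 Vegfr2 siRNA libraries (red, left) and the 5 control libraries (blue, right), 1 point a library in replicate order, with the mean ± SD beside each group. The groups stand apart for Plaur, Plau, Plat, Tfpi, Tfpi2 and S100a10, and overlap for Anxa2, F3 and Procr.

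The tissue-type activator gene went the other way. Plat (Entrez gene 18791, chromosome 8, 22757722 to 22782848), whose product is the activator known for dissolving clots in vessels, was at 58.8, 60.2, 63.2, 60.0 and 60.6 CPM in siRNA libraries, against 89.2, 85.0, 93.9, 89.7 and 88.0 CPM in control libraries. All siRNA libraries were below all control libraries. Plat fell by 32.1% (log2 fold change −0.56, SE 0.0323, adjusted p = 1.99e-19), and it did not pass against a fold of 1.5 (adjusted p of 1).

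The transcripts of the 2 docking proteins of plasminogen did not move by the same amount. Anxa2 (Entrez gene 12306, chromosome 9, 69453683 to 69491792), a calcium-dependent phospholipid-binding protein, was at 871, 901, 879.8, 853 and 908 CPM in siRNA libraries, against 917, 892, 924, 890.4 and 879 CPM in control libraries. These ranges overlap. The fitted change was −2.0% with a 95% interval of −5.13% to 1.24% (log2 fold change −0.03, adjusted p = 0.263). An opposite-strand gene shares 2.63% of its exon bases.

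S100a10 (Entrez gene 20194, chromosome 3, 93555117 to 93564645), which encodes the small partner that annexin A2 protects from degradation, was at 218, 211, 222, 216 and 217 CPM in siRNA libraries, against 257, 251, 252.4, 251 and 242 CPM in control libraries. The siRNA libraries were all lower. S100a10 fell by 13.5% (log2 fold change −0.21, SE 0.0244, adjusted p = 4.16e-10). That is a size close to the middle of all tested genes (48.3rd percentile).

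The related inhibitor genes Tfpi2, whose product acts on plasmin, and Tfpi moved in opposite directions. Tfpi2 (Entrez gene 21789, chromosome 6, 3962589 to 3988978) was at 65.8, 69.9, 64.2, 65.4 and 69.9 CPM in siRNA libraries, against 38.3, 37.4, 39.3, 39.6 and 35.0 CPM in control libraries. The groups were clearly apart. Tfpi2 rose 1.77-fold (95% interval 1.67 to 1.86, log2 fold change 0.82, SE 0.0382, adjusted p = 1.11e-22), at the 92.6th percentile of size.

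Tfpi (Entrez gene 21788, chromosome 2, 84432855 to 84476775), the main inhibitor of tissue factor with factor VIIa, was at 112, 111, 116, 107 and 111 CPM in siRNA libraries, against 129, 119, 122, 118 and 125 CPM in control libraries. The siRNA libraries lay just under the control libraries. Tfpi fell by 9.02% (95% interval −12.6% to −5.29%, log2 fold change −0.14, adjusted p = 5.36e-05), a change smaller than that of most tested genes (33.4th percentile).

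Tissue factor itself was near the floor. F3 (Entrez gene 14066, chromosome 3, 121723537 to 121735052) had 11, 7, 7, 7 and 6 reads in siRNA libraries, against 4, 7, 2, 1 and 4 reads in control libraries, and did not reach the filter for testing. The sums were 38 reads in siRNA (95% Poisson interval 26.9 to 52.2) and 18 reads in control libraries (10.7 to 28.4), intervals that cover counting error only. The highest control library equals 3 of the siRNA libraries, so the groups overlap. A two-sided exact permutation test on CPM gave p = 0.0397, where 0.00794 is the smallest these 10 libraries allow, and leaving out any library but control replicate 2 took it to between 0.0635 and 0.0794. At this depth a difference was not firmly detectable.

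Procr (Entrez gene 19124, chromosome 2, 155751125 to 155755478), the endothelial protein C receptor gene, was at 39.0, 42.8, 45.1, 41.7 and 46.2 CPM in siRNA libraries, against 42.8, 43.5, 44.3, 46.1 and 42.1 CPM in control libraries. The ranges overlap, and the siRNA libraries spread more (coefficient of variation 6.54% in siRNA and 3.50% in control). The fitted change was −1.86% with a 95% interval of −7.40% to 4.02% (adjusted p = 0.572). The interval leaves out changes as large as those of Plat or Tfpi2.

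Set on a per-length scale (TPM, from exon-union length), the tested members lay above the middle of all tested genes. The lowest of them, Plat, was at percentile 56.3 in siRNA and 68.3 in control cells. F3, which was not tested, was near the floor. Plau was at 4051 ± 123 TPM in siRNA and 1766 ± 42.4 TPM in control cells, at the 99.97th and 99.7th percentile of tested genes. Anxa2 followed at 941 ± 21.0 and 963 ± 17.0 TPM, S100a10 at 712 ± 10.97 and 826 ± 15.7 TPM, and Plaur at 564 ± 29.1 and 250.1 ± 19.0 TPM (SD, n = 5 each). Below them Tfpi2 was at 153 ± 6.16 and 86.7 ± 3.74 TPM, Procr at 84.2 ± 5.16 and 86.0 ± 2.64 TPM, Tfpi at 81.1 ± 1.75 and 89.5 ± 3.40 TPM and Plat at 38.6 ± 0.890 and 57.0 ± 1.85 TPM. F3 was last, with single libraries at 0.517 to 0.950 TPM in siRNA and 0.0869 to 0.616 TPM in control cells. The levels of Procr and Tfpi overlap in siRNA cells, and those of Tfpi, Tfpi2 and Procr overlap in control cells, so their order there is not resolved. With the longest transcript as length, the order of Plau, Anxa2, S100a10, Plaur, Plat and F3 was the same, and Plau was at 3025 TPM and Anxa2 at 1138 TPM in siRNA cells.

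**Figure D3:**
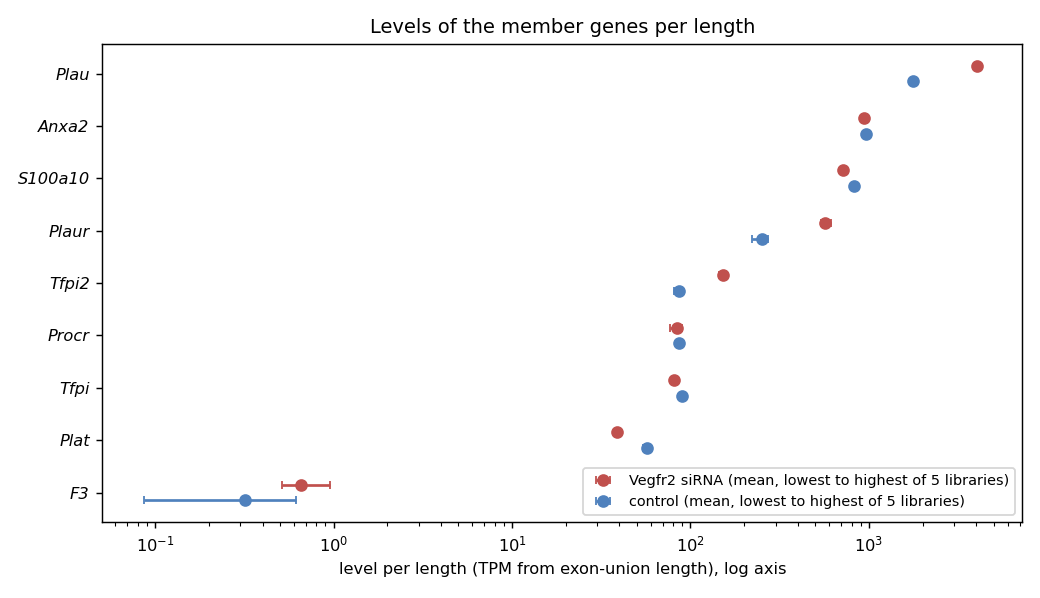
Level per length (TPM on a log x axis) of the 9 members, with Vegfr2 siRNA above control for each gene, as the mean with a bar from the lowest to the highest of 5 libraries. Plau is highest at 4051 TPM in siRNA and 1766 TPM in control cells, F3 lies under 1 TPM in both, and only the bars of F3 are wide.

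Ratios within a library compare pairs of related members, on the per-length scale and as a description without a test. Plau to Plaur was 6.92, 7.60, 7.38, 7.12 and 6.91 in siRNA and 7.14, 6.96, 6.91, 6.63 and 7.78 in control libraries, so protease and receptor transcripts kept overlapping ratios while both rose. Plau to Plat was 99.2 to 109.9 in siRNA and 30.1 to 31.6 in control libraries, with no overlap between the groups. Tfpi to Tfpi2 was 0.506 to 0.575 in siRNA and 0.954 to 1.136 in control libraries, so Tfpi was below Tfpi2 in every siRNA library and close to it in control libraries. With the longest transcript as length the mean ratio was 0.641 in siRNA and 1.247 in control libraries. Anxa2 to S100a10 was 1.28 to 1.39 in siRNA and 1.154 to 1.19 in control libraries, again without overlap.

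**Figure D4:**
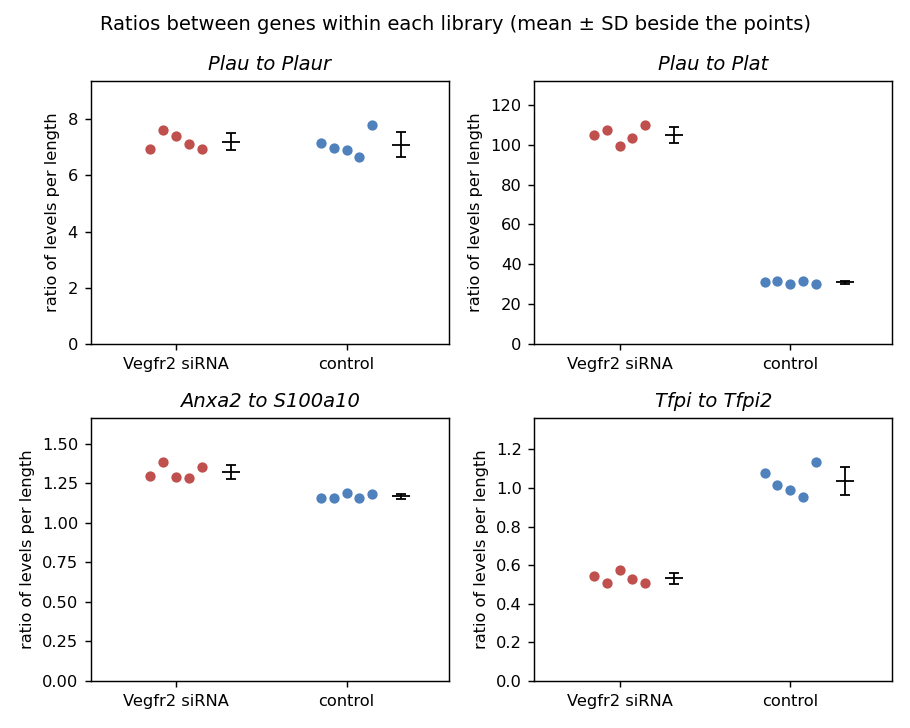
Ratio of levels per length (y axis, from 0) of 4 gene pairs in each of the 5 Vegfr2 siRNA (red, left) and 5 control libraries (blue, right), with mean ± SD beside the points. Plau to Plaur overlaps between the groups, whereas Plau to Plat is 105 ± 4.07 in siRNA and 31.0 ± 0.701 in control libraries.

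The genes with the pattern most like that of a member were taken for the 3 members past a fold of 1.5, by the smallest root mean square difference over the 10 libraries in log2 CPM set to the control mean, among 10325 genes of at least 5 CPM. Nearest to Plaur were Dusp5, a phosphatase gene of the ERK pathway (difference 0.0484; mean 55.2 CPM in siRNA and 23.5 CPM in control cells), and Akr1b8, an aldo-keto reductase gene (0.0622; 137 and 62.7 CPM), and Plau was at place 6 (0.0684). Nearest to Plau were Ppp2r1a, a scaffold subunit gene of protein phosphatase 2A (0.0396; 344 and 147 CPM), and Ifrd1 (0.0403; 162 and 69.4 CPM), and Plaur was at place 8. Nearest to Tfpi2 were Mybbp1a (0.0311; 231 and 129 CPM) and Fam129b (0.0400; 337 and 192 CPM), and Plaur was at place 720 (0.263). All genes share the same libraries and the likeness rests mostly on the size of the group difference.

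The wider fibrinolysis list held 37 genes, of which 24 were tested. Of these 12 rose, 6 fell and 6 did not pass (75.0% called, with 71.3% of all tested genes called), and the median log2 fold change was 0.10. Among cell surface and matrix genes of that list, the integrin genes Itgb3 (log2 fold change 0.43) and Itgb1 (0.33), the membrane protease gene Mmp14 (0.37) and the basement membrane gene Nid1 (0.36, reads divided between genes in 10 libraries) rose. Plgrkt, a membrane receptor gene for plasminogen, fell to 25.3 ± 0.991 CPM in siRNA cells, against 28.1 ± 1.07 CPM in control cells (SD, n = 5 each; adjusted p = 0.00360). Lrp1, a receptor that clears protease and inhibitor complexes, was at 4.53 ± 0.473 and 3.72 ± 0.312 CPM (log2 fold change 0.28, adjusted p = 0.0184), and it no longer passed with DESeq2 (adjusted p = 0.0547), or when siRNA replicate 1 (adjusted p = 0.0825) or control replicate 3 (adjusted p = 0.0511) was left out. Serpine2, encoding protease nexin-1, was not called (log2 fold change 0.18, adjusted p = 0.203), but without control replicate 4 it was (0.30, adjusted p = 0.000493). The collagen uptake receptor gene Mrc2 did not pass (0.13, adjusted p = 0.521). Against a fold of 1.5, Mmp2, Timp2 and Hpn passed downward, named after their values were seen. Timp2, a metalloprotease inhibitor gene, was at 542 ± 36.8 CPM in siRNA and 932 ± 43.0 CPM in control cells, and the gelatinase gene Mmp2 at 1.85 ± 0.363 and 4.29 ± 0.432 CPM. Plg, the plasminogen gene, had no row under that symbol and was not analysed here, and Serpinf2 (7 and 4 reads over siRNA and control libraries) and Serpinb2 (3 and 3 reads) were under the filter.

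The coagulation list held 47 genes, of which 25 were tested. Of these 13 rose, 10 fell and 2 did not pass (92.0% called, beside 71.3% of all tested genes), and 9 passed against a fold of 1.5 (36.0%, beside 8.56% of all tested genes). The median log2 fold change was 0.07 and the median of its absolute value 0.47. Like the fibrinolysis list and the annexin and S100 list, this list was chosen with earlier results of these data known. Its shares are thus a description and not a test of the list. The thrombin receptor gene F2r (PAR1) rose to 202 ± 6.76 CPM in siRNA cells, against 83.1 ± 3.90 CPM in control cells (log2 fold change 1.28, adjusted p = 6.89e-33). Its relatives F2rl1 (PAR2), at 7.32 ± 0.743 and 2.39 ± 0.360 CPM, and F2rl3 (PAR4), at 10.3 ± 0.510 and 5.87 ± 0.683 CPM, rose as well (SD, n = 5 each; log2 fold changes 1.61 and 0.81). All 3 passed against a fold of 1.5.

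Other named genes of the list moved in both directions, among them genes that restrain clotting. Thbd, the thrombomodulin gene whose product turns thrombin toward protein C, fell to 63.7 ± 3.17 CPM in siRNA cells, against 91.3 ± 1.57 CPM in control cells (log2 fold change −0.52, adjusted p = 3.46e-18). Hs3st1, a heparan sulfate 3-O-sulfotransferase linked to antithrombin binding, rose to 53.8 ± 0.910 CPM, against 29.5 ± 1.37 CPM in control cells. Pros1, the protein S gene, was at 252.3 ± 10.6 and 261 ± 4.02 CPM (adjusted p = 0.0877), and it passed as lower under 4 other settings, with adjusted p-values from 0.0207 to 0.0415. Gas6, a vitamin K-dependent relative of protein S and ligand of TAM receptors, fell to 17.0 ± 2.006 CPM, against 42.1 ± 2.98 CPM in control cells (log2 fold change −1.31). The vitamin K epoxide reductase gene Vkorc1 fell (−0.37; 47.7% of its exon bases are shared with an overlapping gene) and its paralog Vkorc1l1 rose (0.47). F8, the factor VIII gene, of which endothelium is the main source, fell to 1.66 ± 0.213 CPM, against 3.63 ± 0.377 CPM in control cells (−1.13), whereas Lman1, whose product carries factors V and VIII out of the endoplasmic reticulum, rose (0.66). The transglutaminase gene Tgm2 fell (−0.86; 21.8% of its exon bases shared with opposite-strand genes), and so did Fgl2, named after its values were seen, to 592 ± 41.1 CPM, against 1297 ± 42.7 CPM in control cells. Vwf was under the filter, with 23 reads over siRNA and 52 over control libraries.

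**Figure D5:**
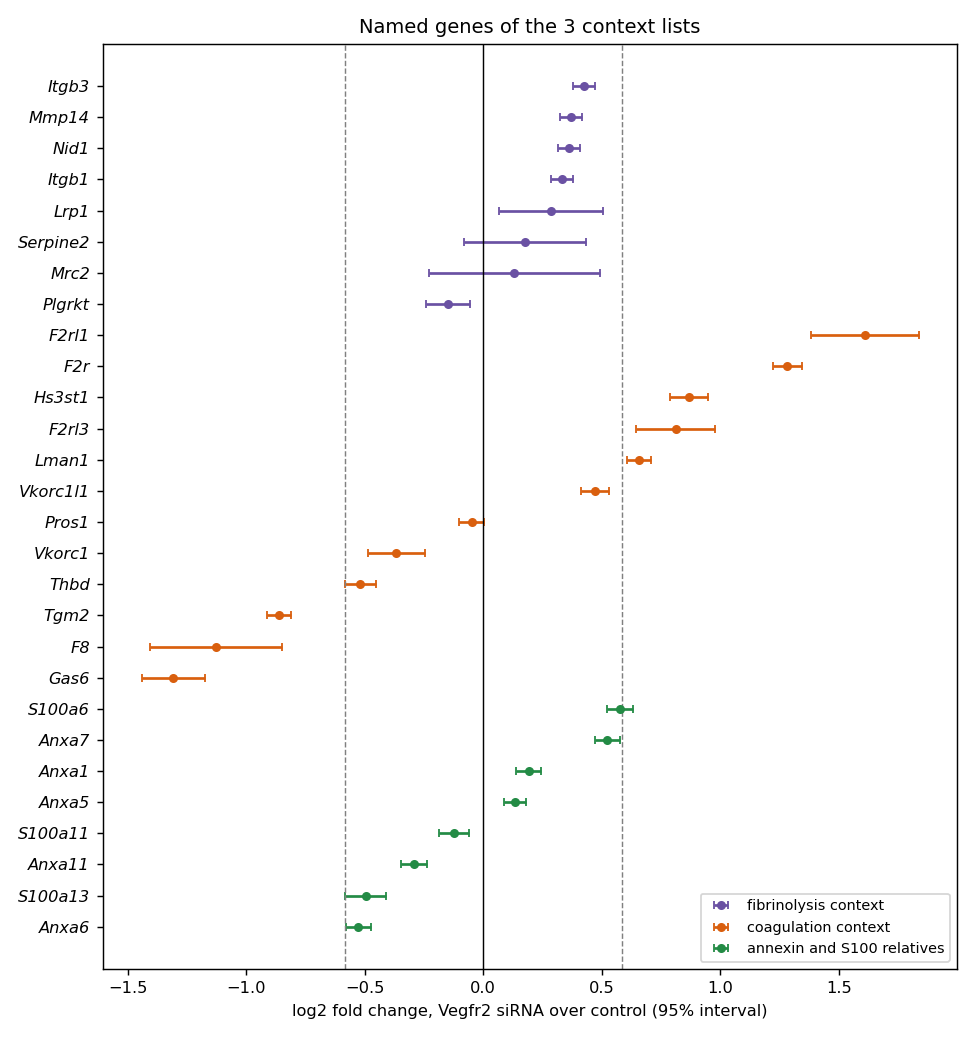
Log2 fold change (Vegfr2 siRNA over control, x axis) with its 95% interval for the named genes of the fibrinolysis (purple), coagulation (orange) and annexin and S100 (green) lists, with dashed lines at a fold of 1.5. F2rl1 (1.61) and F2r (1.28) lie farthest right, and Gas6 (−1.31) and F8 (−1.13) farthest left.

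Genes of the annexin and S100 list moved in both directions. Of 25 listed genes 15 were tested, and of these 7 rose, 6 fell and 2 did not pass (86.7% called, beside 71.3% of all tested genes; median log2 fold change −0.08). By glmTreat 0 passed against a fold of 1.5, beside 8.56% of all tested genes (1 had an unadjusted glmTreat p under 0.05, and without the fold DESeq2 called 13). S100a6 rose to 463 ± 21.9 CPM in siRNA cells, against 311 ± 6.48 CPM in control cells (log2 fold change 0.58), and Anxa7 (0.52), Anxa1 (0.19) and Anxa5 (0.13), whose product binds exposed phosphatidylserine, also rose. Anxa6 (−0.53), S100a13 (−0.50), Anxa11 (−0.29, reads divided between genes in 7 libraries) and S100a11 (−0.12) fell. So did S100a4 and S100pbp, named after their values were seen. S100a4 had the largest fall of the list (−0.83; 1.53 CPM in siRNA and 2.72 CPM in control cells, 51.7% of its exon bases shared). S100pbp (−0.29) is on the list but is not an S100 family gene. S100a10 (−0.21) and Anxa2 (−0.03) lie within that range.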

How the data were processed

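Poly(A) RNA was sequenced, per the labels' protocols. The authors deposited 1 table of expected counts (estimated counts per gene and library, not normalized) for 16251 genes. The submitters' processing notes list RSEM 1.3.1, HISAT2 2.2.1, Bowtie2 2.4.5 and the build GRCm38.p6. What each tool did, the annotation and the strand setting were not given in the sources used here. Groups and columns came from the sample titles.

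Expected counts were rounded and tested with edgeR 4.0.16 under R 4.3.3: filterByExpr (minimum count 10), TMM scaling, a robust quasi-likelihood F test with group as the only term, and glmTreat against a fold of 1.5, each Benjamini-Hochberg adjusted over 12161 genes at a threshold of 0.05. SEs come from the F statistic. The biological coefficient of variation was 2.85%. CPM uses TMM-scaled library sizes, and TPM uses GENCODE M21 exon-union lengths (15822 genes). Coordinates are RefSeq's. Within a group, no pair of libraries was close enough to be 1 library deposited again (chi-square over degrees of freedom, 1.50 to 3.47). Scripts were tested on simulated data.

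The members and lists were chosen with earlier results of these data known. Named genes are the members, Kdr, 21 fixed names (1 listed gene is not reported here), and the 5 genes of each list with the smallest p at a mean of at least 5 CPM, apart from those said to be named after their values were seen. Alternatives were DESeq2 1.42.0, voom from limma 3.58.1, scaling by RLE or the upper quartile, testing without a filter or above a mean of 5 CPM, a replicate block, and each library left out. A longest-transcript length, leaving out both replicates numbered 5, and leave-one-out for F3 were added after seeing the data.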

Additional observations from a re-analysis of the deposited data

Results flagged for a closer look

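In 7 of 84 groups of 5 libraries tested (Dixon's criterion on the gap to the nearest library over the whole range), 1 library stood apart, where chance flags about 1 in 20 groups. Among the members this was F3 in siRNA replicate 1, at 0.602 CPM against 0.330 to 0.384 CPM in the other siRNA libraries. For the other genes the library set apart was control replicate 5 for Plgrkt (30.0 CPM) and Anxa7 (193 CPM), control replicate 4 for Lman1 (141 CPM), control replicate 3 for S100a6 (322 CPM), siRNA replicate 1 for F2rl3 (9.42 CPM), and control replicate 2 for Serpinf2 (0 CPM, a gene with at most 3 reads a library). Without the library concerned, Plgrkt, Anxa7, Lman1, S100a6 and F2rl3 kept their direction and passed the same test.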

How the results depend on the processing

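The count of 6 called members held under every alternative run with a filter on low counts. Without that filter 7 members were called, beside 8956 of 16226 tested genes. The added member was F3 (log2 fold change 1.04, edgeR adjusted p = 0.0274). The count of 3 past a fold of 1.5 held under every edgeR alternative, and that test was not run with DESeq2 or voom. Plau, Plaur, Tfpi2, Plat, S100a10 and Tfpi kept direction and call in all 18 alternatives, with log2 fold changes from 1.17 to 1.21 (Plau), 1.102 to 1.21 (Plaur), 0.78 to 0.84 (Tfpi2), −0.57 to −0.54 (Plat), −0.22 to −0.20 (S100a10) and −0.15 to −0.12 (Tfpi). Procr did not pass in any, and its log2 fold change ran from −0.0537 to 0.00606 when 1 library was left out, changing sign without siRNA replicate 1. The F3 difference ran from 0.170 to 0.263 CPM when 1 library was left out (exact permutation p from 0.0159 to 0.0794). Of the 64 listed context genes tested, 54 were called (84.4%, beside 71.3% of all tested genes), and 47 to 59 were called under the alternatives, where the number tested varies with the filter. Same-numbered libraries did not deviate together (correlations from −0.0982 to −0.00664), so numbers were not taken as pairs, and with the replicate block 6 members and 8537 of all genes were called, beside 8668 without it. F3 and other genes of a few reads a library are limited by depth.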
